A study of Caenorhabditis elegans with 2 samples.

Results

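The histone genes of Caenorhabditis elegans described here are the 72 protein-coding genes whose symbol begins with his- and a digit, of 19973 protein-coding genes in the gene models of the WBcel235 assembly, which is also called ce11. The rule that defines them uses the name alone and no measured value, but it was chosen with earlier results of these data known. Of the 72, 67 lay in 14 clusters, in which neighbouring histone genes were at most 5000 bp apart, and 5 lay singly. Ensembl release 115 gives 22 of the 72 the symbol of another histone gene, so the RefSeq symbols of the same WormBase gene IDs are used.

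Binding of the transcription factor HLH-30 was mapped by chromatin immunoprecipitation with an anti-GFP antibody and sequencing, in 2 biological replicates of whole hermaphrodites labelled late embryonic. All embryos were of strain OP433, which carries the mutation unc-119(tm4063) III and the transgene wgIs433, which makes HLH-30 fused at its C-terminal end to GFP-FLAG. The labels do not name the promoter of the transgene, and there was no other stage, strain or treatment. In whole embryos, strong binding in few cells and weak binding in many cannot be told apart.

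Histones H2A, H2B, H3 and H4 form the protein core of the nucleosome, around which DNA is wound, and H1 binds the linker DNA between nucleosomes. Animals carry many copies of the core histone genes, which are transcribed mainly in S phase, when new DNA has to be packed, while replacement variants such as H3.3 are also made and deposited outside S phase. HLH-30 belongs to the TFEB family of basic helix-loop-helix proteins, which are known for genes of autophagy and lysosomes and for binding E-box sequences such as CACGTG.

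A gene was counted as having a peak where a summit fell in a window around an annotated start, reaching 1000 bp upstream and 200 bp downstream. The authors deposited a list of peaks for each replicate, a list from both replicates pooled, and an optimal list. The optimal list held 1959 peaks, the pooled list 18832, the replicate 1 list 11695 and the replicate 2 list 30000. Each peak has a signal, the authors' own value, whose median was 72.7 in the optimal list, 18.8 in the pooled list, 11.6 in the replicate 1 list and 8.64 in the replicate 2 list. The optimal peaks carry the same signals and ranks as in the pooled list, whereas the replicate lists have scales of their own, so signals were ranked within a list only. The optimal list combines the replicates and so has no spread between them, and the sequencing depth is unknown.

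In the optimal list 8 of the 72 histone genes had a peak, his-72, his-31, his-32, his-67, his-68, his-37, his-60 and his-59. This share was 11.1%, with an exact 95% binomial interval of 4.92% to 20.7% that covers the counting of genes only, beside 6.63% of all protein-coding genes. The 8 genes shared 5 peaks, since 3 of the peaks lay between a pair of histone genes that are transcribed away from each other. In the pooled list 22 histone genes had a peak, 30.6% beside 33% of all protein-coding genes, from 18 different peaks. In the replicate 1 list 14 had a peak, 19.4% beside 23.7%, and in the replicate 2 list 24 had a peak, 33.3% beside 43.1%. The same 14 genes had a peak in both replicate lists, 10 of them with summits within 100 bp, which is 19.4% of the histone genes and also 19.4% of all protein-coding genes. The interval of the optimal list includes its background, and in the other lists the share was at or below it. Genes that share a peak are not separate observations.

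The strongest of the peaks belonged to his-72, a single gene on chromosome III whose product RefSeq names as histone H3.3 type 2. It lay in the intergenic sequence at 12369098 to 12369244 (147 bp), with its summit 123 bp upstream of the nearest annotated start. Its signal was 176 in the optimal and the pooled list, at rank 218 of both. It was 47.4 in the replicate 1 list, at rank 373, and 130 in the replicate 2 list, at rank 173. A second his-72 peak, 372 bp upstream of another start and in an intron of the gene, had a signal of 29.8 in the pooled list and 22.4 in the replicate 2 list, with no replicate 1 summit within 100 bp.

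The peak at his-31 and his-32, a divergent pair on chromosome IV that encodes H4 and H3, came next. It spanned 8333998 to 8334341, with its summit 187 bp upstream of his-31 and 135 bp upstream of his-32. Its signal was 131 in the pooled list, at rank 344, 44.9 in the replicate 1 list, at rank 410, and 89.2 in the replicate 2 list, at rank 323. The replicate 1 summit was 69 bp from the pooled one, still between both genes.

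The peak of his-37, an H4 gene on chromosome V, spanned 9546836 to 9547179 with its summit 97 bp upstream. Its signal was 87.7 in the pooled list, at rank 713, 43.7 in the replicate 1 list, at rank 427, and 46.1 in the replicate 2 list, at rank 1020. The divergent H4 and H3 genes his-60 and his-59 on chromosome IV shared a weaker peak at 7487916 to 7488259, with its summit 96 bp and 161 bp upstream. Its signal was 56.7 in the pooled list, at rank 1474, 18 in the replicate 1 list, at rank 2040, and 45.1 in the replicate 2 list, at rank 1057. Ranked in the shorter replicate 1 list, it therefore fell below place 1959.

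The bases around these 4 summits are shown because the his-72 window holds another short sequence than the other windows, which share a 9-base run. Each line gives 50 bases to either side of the pooled summit, 5′ to 3′ on the + strand of the RefSeq WBcel235 genome. They are chrIII:12369123-12369223 for his-72, chrIV:8334120-8334220 for his-31/his-32, chrV:9546958-9547058 for his-37 and chrIV:7488038-7488138 for his-60/his-59. The capitals mark CACGTG or CATGTG and the 9-base run ATGTGTCCC, in the last line as its reverse complement GGGACACAT.
his-72: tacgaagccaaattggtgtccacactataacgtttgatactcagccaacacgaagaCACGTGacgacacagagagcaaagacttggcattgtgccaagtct
his-31/his-32: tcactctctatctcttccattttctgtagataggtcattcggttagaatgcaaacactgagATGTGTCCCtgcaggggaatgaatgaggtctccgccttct
his-37: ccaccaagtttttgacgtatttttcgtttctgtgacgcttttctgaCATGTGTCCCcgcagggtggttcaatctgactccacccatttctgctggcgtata
his-60/his-59: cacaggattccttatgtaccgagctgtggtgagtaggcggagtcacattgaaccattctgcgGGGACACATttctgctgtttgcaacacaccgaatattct

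CACGTG stood in the his-72 window and in none of the other optimal peaks of histone genes, 1 of 5 (20%) beside 21.8% of all optimal peaks, searched within 50 bp of the summit on both strands. In the pooled list it stood in 1 of 18 such peaks (5.56%) beside 15.4% of all peaks. CATGTG stood in the his-37 window, where it overlaps the 9-base run, 1 of 5 beside 17.1% of all optimal peaks. GAGAGA stood in 1 of the 5 beside 30% of all optimal peaks. The same count was found for ACGCAG, beside 20.5%, and for the hexamer CGTCTC, beside 22.7%. In the 300 bp upstream of the starts, CACGTG stood at 1 of 72 histone genes (1.39%) beside 5.73% of all protein-coding genes, and GAGAGA at 33 (45.8%) beside 21.6%. The same bases can count for both genes of a divergent pair, and 16 of the 31 such pairs have the same sequence between their starts as another pair. A match of letters is a description and not a site of binding.

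The run ATGTGTCCC was the longest sequence common to the windows of the 4 optimal peaks at clustered histone genes, found on either strand after those peaks were known. It was absent from the his-72 window. Its centre lay 15 bp from the summit at his-31/his-32, 1 bp at his-37 and 16 bp at his-60/his-59. The spacer of his-67/his-68 held it at both 42 bp and 67 bp from the summit. It stood in 6 of the 1959 optimal peaks (0.306%), of which 4 were these, and the other 2 had fbxb-107, with a signal of 102, and nspc-17, with a signal of 158, as their nearest genes. In the pooled list it stood in 29 of 18832 peaks (0.154%), of which 7 were in windows of the 72 histone genes. The run was also found at hil-2, a related histone gene outside the naming rule with a pooled signal of 44.2.

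The run also stood upstream of histone genes without a peak, most of them in repeated sequence. It stood in the 300 bp upstream of 42 of the 72 histone genes (58.3%), beside 74 of all 19973 protein-coding genes (0.371%). Of these 74 genes, 32 were not among the 72. The 42 are not separate observations, because the same run can lie upstream of both genes of a divergent pair. It stood between the genes in 20 of the 31 such pairs, and 16 of the 31 have the same sequence there as another pair. The run was there in 7 of the 8 histone genes with an optimal peak, in 35 of the 64 without it, and in 28 of the 50 with no peak in the pooled list. The first of these counts was fixed in advance, since the run was taken from the peaks of those 7 genes, so the counts are no contrast. To show the run with its neighbouring bases in pairs with and without a peak, 31 bases are given for 3 pairs that had a pooled peak and then 4 that had none. They are read 5′ to 3′ on the strand that holds ATGTGTCCC, which is in capitals, from the same genome. The runs lie at chrIV:7486445-7486453 (+), chrV:16040622-16040630 (-) and chrV:8535107-8535115 (+) for the first 3 pairs, and at chrII:13818232-13818240 (-), chrII:13820059-13820067 (-), chrIV:8331507-8331515 (-) and chrV:8847805-8847813 (-) for the others.
his-61/his-62: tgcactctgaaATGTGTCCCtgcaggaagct
his-4/his-3: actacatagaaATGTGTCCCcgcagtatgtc
his-6/his-5: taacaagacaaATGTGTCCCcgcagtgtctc
his-16/his-15: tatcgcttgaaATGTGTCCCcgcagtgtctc
his-14/his-13: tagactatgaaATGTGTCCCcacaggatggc
his-29/his-30: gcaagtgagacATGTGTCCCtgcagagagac
his-50/his-49: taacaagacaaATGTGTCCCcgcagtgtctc

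The 31 bases of his-6/his-5 and his-50/his-49 were the same. Of these pairs, his-6/his-5 had a pooled peak and his-50/his-49 had none. That peak was weak, with a signal of 14 at rank 15432 of 18832 and no replicate 1 summit within 100 bp. The entire spacer of his-50/his-49 occurs elsewhere in the genome, with 0% of its 36-base stretches found a single time, whereas this share was 85.6% for his-6/his-5. Reads that match several places cannot be assigned to a copy, and the sources used here do not say how the authors' alignment treated them. Whether repeated sequence accounts for the difference between these pairs was not tested.

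The remaining optimal peak was that of his-67 and his-68, which encode H4 and H2A on chromosome I. It spanned 9988781 to 9989124, with its summit 190 bp upstream of his-67 and 179 bp upstream of his-68. Its signal was 103 in the pooled list, at rank 543, 34.1 in the replicate 1 list, at rank 678, and 64.1 in the replicate 2 list, at rank 583, with the summit at the same base in all lists. The summit also lay at -849 bp from the start of alg-5, an Argonaute gene, where a minus means upstream. All 5 optimal peaks were intergenic, and no noncoding gene lay within 200 bp of their summits. The 8 genes had their summits from 96 bp to 190 bp upstream of the start.

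**Figure D1:**
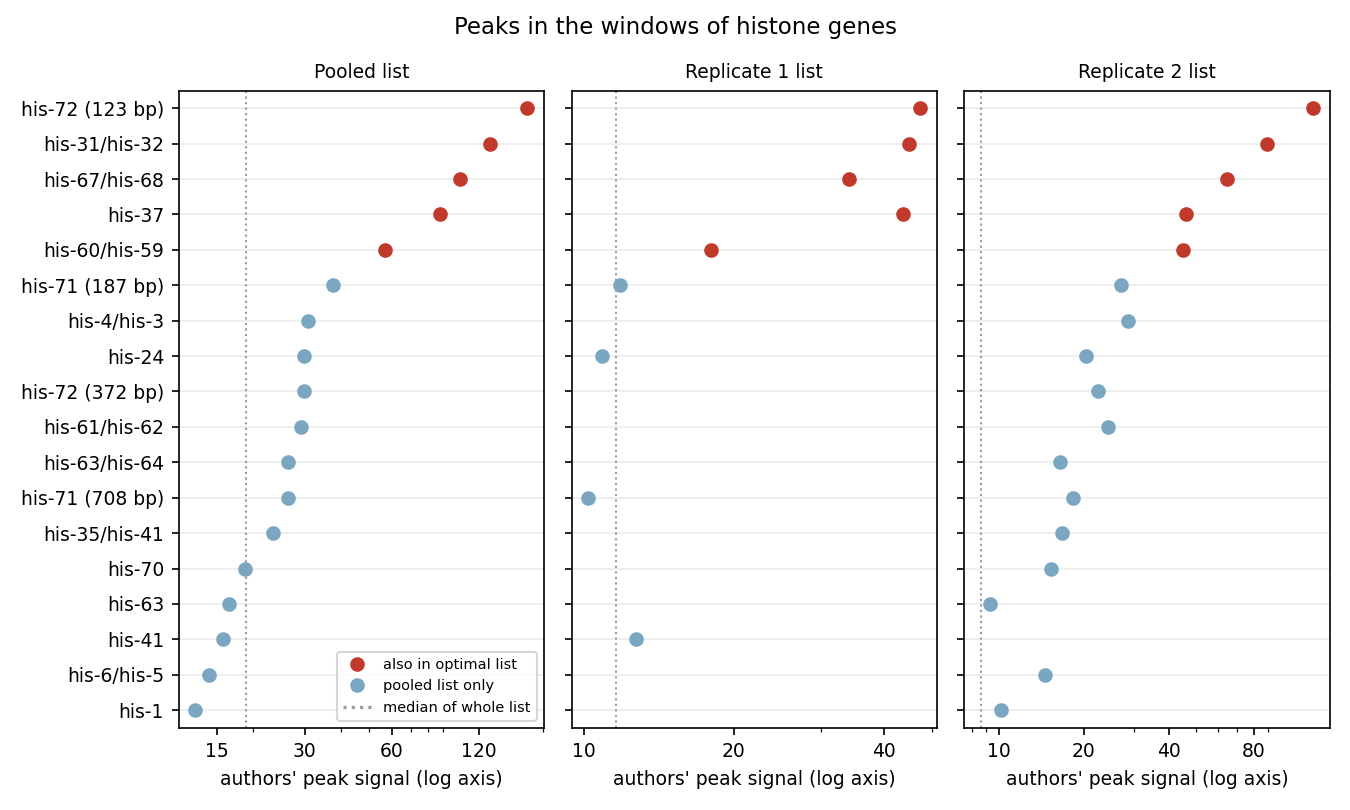
The authors' peak signal (log axis) of each pooled peak in the window of a histone gene, in the pooled list and, where a summit lay within 100 bp, in each replicate list. Red points are peaks also in the optimal list, blue points are in the pooled list only, the dotted line is the median of the whole list, and distances in parentheses tell apart peaks of the same gene. The 5 red peaks, from 56.7 to 176 in the pooled list, are above the blue ones in all 3 lists. In the pooled list this was fixed in advance, since the optimal peaks have the same ranks there as in their own list.

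A further 14 histone genes had a peak in the pooled list and none in the optimal list, which holds no signal below 47.7. The strongest was at his-71, a single gene whose product RefSeq names as histone H3.3 type 1. It had a signal of 37.7 in the pooled list, with its summit 187 bp upstream, 11.8 in the replicate 1 list and 27.1 in the replicate 2 list, and its window held CATGTG. Another his-71 peak 708 bp upstream had 26.3, 10.2 and 18.3. CACGTG stood within 50 bp of its replicate 2 summit, 780 bp upstream, but not of its pooled or replicate 1 summit. The single gene his-24, which encodes the linker histone H1, had a peak 36 bp upstream with 29.9, 10.9 and 20.4 in the same lists. Both genes thus had peaks in both replicates. In replicate 1 only the stronger his-71 peak was above the median of the list, and in replicate 2 all 3 peaks were.

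Among the clustered genes with a pooled peak only, the H2A and H2B pair his-4/his-3 had a signal of 30.9 in the pooled list and 28.7 in the replicate 2 list. The H2A and H2B pair his-61/his-62 had 29.2 and 24.3, and the H3 and H4 pair his-63/his-64 had 26.3 and 16.4. None of these pairs had a replicate 1 summit within 100 bp of the pooled one, although replicate 1 held a peak of signal 9.03 in a coding exon of his-62, at rank 11436 of 11695. The H2A and H2B pair his-35/his-41 had 23.3 and 16.7, the H3 and H4 pair his-6/his-5 had 14 and 14.6, and his-70, an H3 gene, had 18.7 and 15.3. The weakest was the H4 gene his-1, at 12.6 and 10.2, with its summit in a coding exon of the neighbouring his-2. The pooled summit of his-35/his-41 also lay at -732 bp from the start of C50F4.6.

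The remaining pooled peaks were further ones at his-63 and his-41. The further his-63 peak lay nearest to the start of his-64, at 548 bp. The further his-41 peak, of signal 15.7, had its summit in a coding exon of his-35 and at -634 bp from the start of mdf-1. It was matched by a replicate 1 summit of signal 12.7 within 100 bp but by none in replicate 2. No pooled peak was found at 50 histone genes. Of these, his-15 and his-65 had a weak peak in the replicate 2 list, with signals of 5.89 and 5.12 at ranks 23217 and 26847. The other 48 had no peak in any of the lists. Replicate 2 held peaks at 10 histone genes that replicate 1 lacked, and replicate 1 held none that replicate 2 lacked, in lists of unequal length. Cut to the 1959 strongest peaks each, replicate 1 had 6 histone genes with a peak and replicate 2 had 8, among them all 6.

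The rule's window set a few of these calls. Just inside its upstream edge in the pooled list were his-70, 823 bp upstream, and a second his-63 peak of signal 16.5, 803 bp upstream. Just outside were his-2, with the peak of signal 12.6 at 252 bp downstream of its start, and his-42, with a peak of signal 39.3 at 1115 bp upstream. The single gene his-74, annotated as an H3.3-like gene, was not counted for a peak of the optimal list 719 bp downstream of its start. This peak, with a signal of 63.4 at rank 1235, had its summit beyond the annotated end of the gene, which spans 12659704 to 12660330. In the replicate 1 list the only peak of his-5, of signal 8.97 at rank 11608, lay 910 bp upstream. In the replicate 2 list the peak of his-65 lay 835 bp upstream. With a window of 500 bp upstream to 100 bp downstream, 11 histone genes in place of 14 had a peak in both replicate lists.

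By type of histone, 4 of 16 H4 genes had an optimal peak and 7 a pooled one, where 6.63% and 33% of all protein-coding genes had them. For H3 these were 3 and 7 of 21 genes, for H2A 1 and 4 of 17, for H2B 0 and 3 of 17, and for H1 0 and 1 of 1. All 16 H4 genes encode the same protein of 103 residues, and 16 of the 17 H2A genes encode the same protein of 127 residues. For H2B, 6 of 17 genes encode the most frequent protein of 123 residues. The H2B gene his-39 encodes only 67 residues, is 52.8% identical to that protein and was placed by protein identity alone. For H3, 15 of 21 genes encode the most frequent protein of 136 residues. The other 6 were his-71 (94.1% identical to it), his-72 (93.4%), his-74 (88.2%), his-69 (77.2%), his-70 (76.5%) and his-73 (33.1%). Of these, his-73 encodes only 46 residues and was placed with H3 by protein identity alone. Among these 6, his-72 had an optimal peak, his-71 and his-70 had pooled peaks, and his-69, his-73 and his-74 had none in the window.

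Of the single genes 1 of 5 (20%) had an optimal peak. In the pooled list and in each replicate list 3 of 5 had one, namely his-72, his-71 and his-24. With so few genes the exact 95% interval of this 60% runs from 14.7% to 94.7%. Of the clustered genes 7 of 67 (10.4%) had an optimal peak, 19 (28.4%) a pooled one, 11 (16.4%) a replicate 1 peak and 21 (31.3%) a replicate 2 peak. The shares of all protein-coding genes in these lists were 6.63%, 33%, 23.7% and 43.1%. In the pooled list 8 of the 14 clusters held a peak. The 6 clusters without one held 37 genes, among them the largest cluster, of 13 genes on chromosome II.

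How much of the upstream sequence occurs a single time in the genome was measured as the share of 36-base stretches in the 300 bp before the start, on both strands. The limits of 10% and 90%, and the 300 bp, were chosen after values had been seen. Under 10% of this sequence was unique at 36 of the 72 histone genes, beside 311 of all 19973 protein-coding genes. None of these 36 had an optimal or a pooled peak, and among the 311 genes 1 (0.322%) had an optimal and 5 (1.61%) a pooled peak. Another 12 histone genes were between the limits, of which 0 had an optimal and 4 (33.3%) a pooled peak, beside 2.4% and 17.9% of 1249 genes.

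Of the 24 histone genes with at least 90% unique sequence, 8 (33.3%) had an optimal peak and 18 (75%) a pooled one. The shares among all 18413 such protein-coding genes were 7.02% and 34.6%. In the replicate 1 list these shares were 54.2% of the histone genes and 25% of all, and in the replicate 2 list 75% and 44.9%. With stretches of 100 bases in place of 36, the shares with an optimal peak were 25% of 32 histone genes and 6.83% of 19304 genes. These are descriptions with no test, in which both genes of a pair with a shared peak count. The 6 histone genes with at least 90% unique sequence and no pooled peak were his-38, his-39, his-40, his-42, his-69 and his-74. The other 44 without a pooled peak all had less, and the part of repeated sequence in their missing peaks was not tested.

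**Figure D2:**
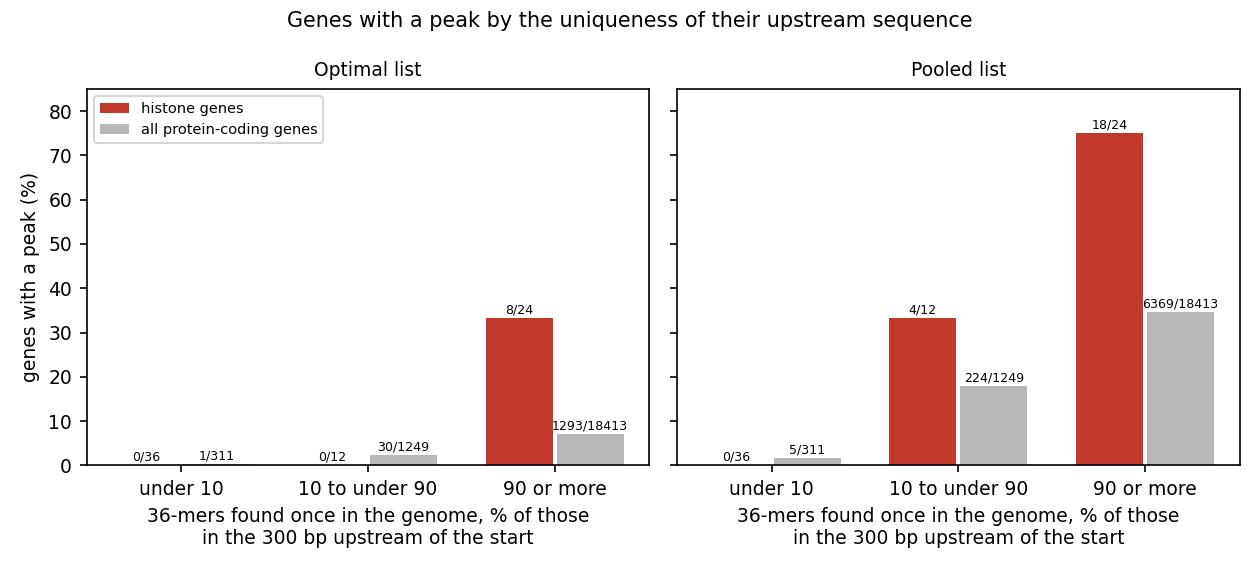
The share of genes with a peak (%) in the optimal and the pooled list, by the share of 36-base stretches in the 300 bp upstream of the start that occur once in the genome, for histone genes (red) and all protein-coding genes (grey). Numbers above the bars are genes with a peak over genes in the class. The 36 histone genes under 10% have no peak in either list, and at 90% or more 8 and 18 of 24 have one.

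Most histone genes stand in divergent pairs whose starts are close together, so that a peak between them falls in both windows. There were 31 such pairs, which hold 62 of the 72 genes. The spacer had a median length of 292 bp in the 16 pairs of H2A and H2B, 255 bp in the 14 pairs of H3 and H4, and was 368 bp long in the pair his-67/his-68. A pooled summit lay in 3 of the 16 H2A and H2B spacers, in 4 of the 14 H3 and H4 spacers, and in that of his-67/his-68. An optimal summit lay in 0, 2 and 1 of them. No spacer held CACGTG, 4 held CATGTG and 16 held GAGAGA.

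Only 15 spacers had a sequence found in no other pair, and the other 16 were each identical to at least one more. In 8 spacers every 36-base stretch was unique, and 6 of these held a pooled summit and 3 an optimal one. The 2 without were his-2/his-1 and his-38/his-40. Of the 3 spacers that were 50% to under 100% unique, 2 held a pooled summit. The 20 remaining spacers were at most 16.1% unique, and none held a summit in any of the 4 lists. The run ATGTGTCCC stood in 14 of those 20, in 5 of the 8 fully unique spacers and in 20 of all 31. Of the 11 spacers that were at least 50% unique, all 6 with the run held a pooled summit, as did 2 of the 5 without it. An optimal summit lay in 3 of the 6 and in 0 of the 5. The run was itself taken from peaks in 3 of these spacers, so this is a description with no test. Among the fully unique spacers, pooled summits lay in all 3 of H2A and H2B and in 2 of the 4 of H3 and H4, and optimal summits in 0 and in 2.

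**Figure D3:**
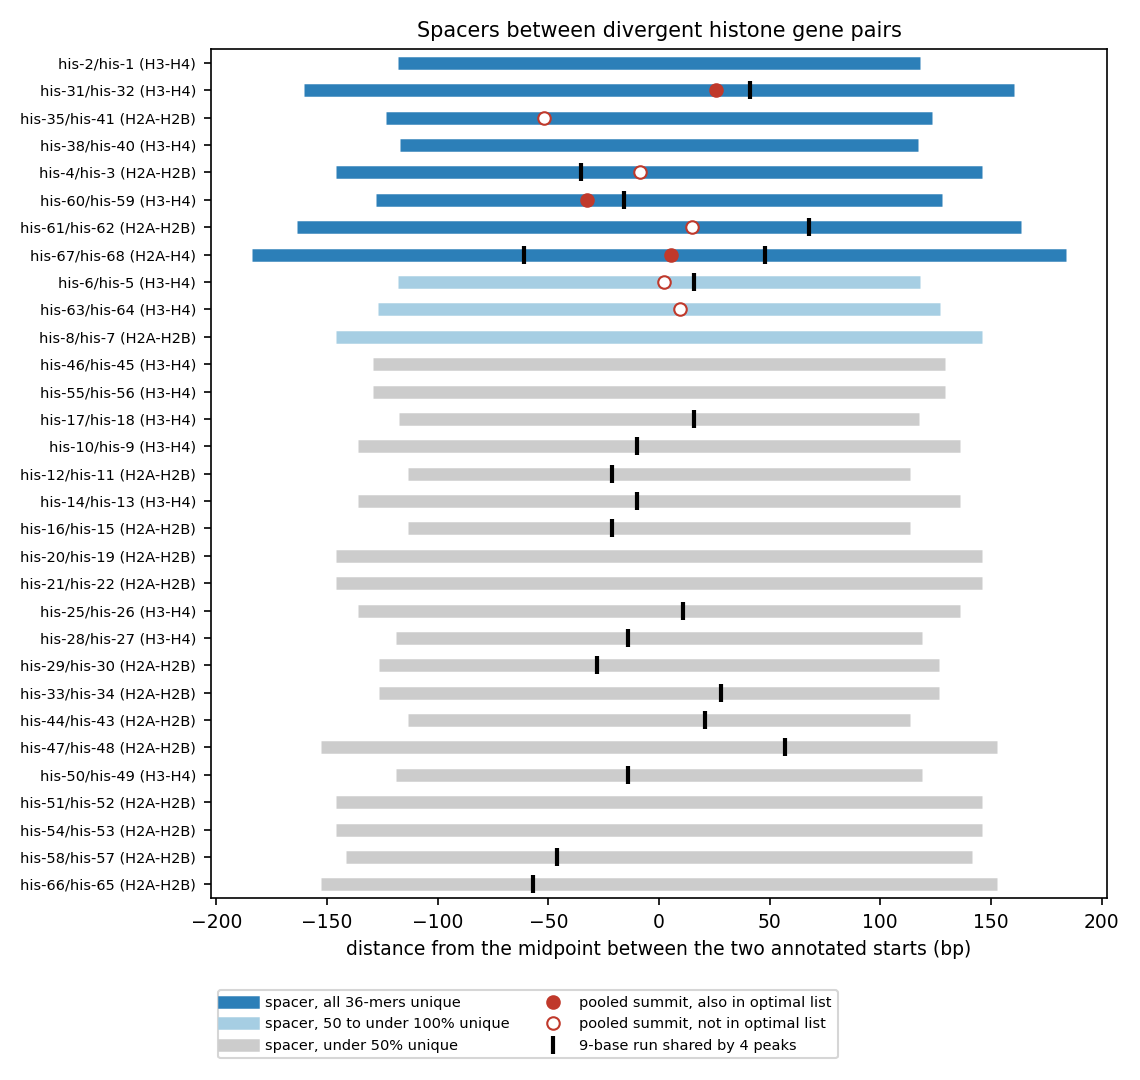
The 31 spacers between divergent histone genes, drawn as bars to scale around the midpoint between both annotated starts (distance in bp), coloured by the share of their 36-base stretches that occur once in the genome. Red points are summits in the optimal list, open points are summits in the pooled list only, and black ticks are the 9-base run. Summits lie in 8 of the 11 upper spacers and in none of the 20 grey ones, of which 14 hold the run.

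Of 11 related histone genes outside the naming rule, 1 had an optimal peak, 5 a pooled one, and 5 a peak in both replicates, beside 6.63%, 33% and 19.4% of all protein-coding genes. The optimal peak was that of hil-7, which encodes a linker histone at 6646312 to 6646972 on chromosome IV, with its summit at -144 bp from the start. Its signal of 443 was at rank 30 of the optimal list, and it was 137 at rank 46 of the replicate 1 list and 305 at rank 28 of the replicate 2 list. This peak had a higher rank than any peak of the 72 histone genes. In the pooled list htz-1, the H2A.Z variant, had a signal of 45.1, hil-2 had 44.2, hcp-3, the centromeric H3 variant, had 25.4, and hil-3 had 23.

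Among all protein-coding genes, 6.63% had an optimal peak, 33% a pooled one and 19.4% a peak in both replicates. Of 14 genes that supply, chaperone or place histones, 12 had a pooled peak, 12 a peak in both replicates and 3 an optimal peak. The first was lin-53, a histone-binding protein of the RbAp48 family, with a signal of 81.2 at rank 813 and its summit at -256 bp from the start, in a window shared with nra-2. The others were hira-1, the H3.3 chaperone HIRA, with 53.8 at rank 1608, and xnp-1, the ATRX homologue, with 49 at rank 1876. In the pooled list cdl-1, which binds the stem-loop of histone mRNAs, had 26.6, and spt-16, a subunit of the FACT chaperone, had 39.6.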

How the data were processed

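The deposited files are lists of peaks in ce11, and the lists in ce10 were not used. Per the deposited descriptions, the authors called peaks and background for each replicate and for both replicates pooled, and made an optimal list by irreproducible discovery rate. The signal of each peak is the authors' deposited value against a control, used here only to describe and rank peaks within a list. The sources used here do not give the aligner, the peak caller or the treatment of reads with several matches. Depth is unknown.

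Genes and starts were those of protein-coding transcripts in Ensembl release 115, and bases those of the RefSeq WBcel235 genome. Positions count from 1. Summits were matched between lists within 100 bp. Classes followed RefSeq product text and protein identity. Python 3.11.15, numpy 2.4.6, biopython 1.88 and scipy 1.17.1 were used, and counting was tested on simulated data. No test of chance was made. Named genes were all with an optimal peak, all single genes, the strongest 6 others in the pooled list and those at the window's edge. Neighbours in the window of an optimal or pooled peak, and listed related genes with an optimal peak, were named as well. Other named genes were chosen after their values were seen. Members and lists were chosen with earlier results of these data known.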

Additional observations from a re-analysis of the deposited data

How the results depend on the processing

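Of 68 counts recomputed under alternatives (other windows, whole peak intervals, nearest gene only, stronger peaks only, each replicate alone, equal list lengths, other cluster gaps and other distances for CACGTG), 63 were within 1.5 times the reported count and 5 were not. Counting each peak for its nearest gene alone, which splits divergent pairs by construction, left 5 histone genes with an optimal peak, 4 of them clustered, 13 with a pooled peak and 6 with a peak in both replicates. Keeping the stronger part of the optimal list left 721 of all protein-coding genes with a peak. With the 1959 strongest peaks of a replicate in place of the optimal list, histone genes with a peak ranged from 6 to 8, clustered ones from 5 to 7, single ones from 1 to 1, distinct peaks from 4 to 5, peaks with CACGTG from 1 to 1, clusters from 3 to 4, and all genes from 1228 to 1385. The peak lost in replicate 1 was that of his-59 and his-60. No paired analysis was possible because the samples form a single group and no result comes from a test. Depth is unknown, so a gene without a peak is one not detected in these lists, and at repeated copies reads cannot be assigned to a gene.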
